A study of Mus musculus with 2 samples.

Results

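Among the CD45+ immune cells sorted from neonatal mouse skin, a set of mostly lymphoid cells was chosen for transcripts of Hlf, Bmp2 or Pxdc1 together with Rora, with no Foxp3 and with limits on transcripts of dividing and of antigen-presenting cells. They were chosen by their own counts of unique molecular identifiers (UMIs, the tags that count captured RNA molecules). A barcode with at least 200 genes and under 10% mitochondrial UMIs was taken if it held 2 or more UMIs of Hlf, Bmp2 and Pxdc1 together, at least 1 of Rora, none of Foxp3, fewer than 3 of the division genes Mki67 and Top2a, and under 1% of its UMIs from the MHC class II genes Cd74, H2-Aa, H2-Ab1 and H2-Eb1. The choice left 3726 of 27589 quality-filtered barcodes, with 1468 in the anti-Gr-1 library and 2258 in the isotype control library. Because these counts chose the cells, their levels of these genes, and the clusters made from them, are a description and were not tested.

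The mice were C57BL/6 wild types. The anti-Gr-1 group received an antibody used for depletion of monocytes, and the other group an isotype control, with doses on alternate days from postnatal day 4 to day 14. Skin was taken at day 15, digested with collagenase and sorted for live CD45+ cells, and 4 to 7 animals were pooled per treatment. Each pool gave 1 library of 3′ transcript ends, so the treatments have no replicates, no difference between them was tested, and an effect of treatment cannot be told apart from a difference between 2 libraries or 2 pools. The chosen cells held a median of 7911.5 UMIs in the anti-Gr-1 library and 6010 in the isotype control library, and levels are given as counts per 1000000 UMIs (CPM), summed over the cells of a library. Intervals in parentheses are 95% exact intervals and cover counting error only. The libraries shared 61 barcodes, 1 of them a chosen cell in both. Of the chosen cells called by Xist and Y-linked transcripts, 27.1% were female in the anti-Gr-1 library and 49.7% in the isotype control library. The highest doublet scores took 4.70% and 11.2% of the chosen cells, beside 6.44% and 15.6% of all filtered barcodes. The number marked in each library was set by its barcode count, so a difference in these shares is not a measure of doublets.

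Skin in early life holds several lymphoid cells that need no conventional antigen recognition. Group 2 innate lymphoid cells lack a T cell receptor, depend on the transcription factors GATA3 and RORα, and make IL-13, IL-5 and amphiregulin. Dermal γδ T cells of the IL-17 type carry a receptor of γ and δ chains with the CD3 subunits, use the transcription factor SOX13, and make IL-17A. Both kinds use the IL-7 receptor and live in the tissue for long periods. HLF is a transcription factor of the PAR bZIP family best known from blood stem cells, BMP2 is a secreted ligand of the bone morphogenetic protein pathway, and CCR6 is the receptor of the chemokine CCL20.

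The 3 regulatory windows below belong to Ccr6, of which 1 start region holds the letters bound by the families of both RORα and HLF, to Il17rb, which marks one kind of these cells and holds a GATA word, and to Hlf, which holds none of the words searched. Each runs 5′ to 3′ on the gene's strand, from 250 bases before to 50 bases after a transcript start, from RefSeq on build GRCm38.p6, with searched words in capitals. They lie at chr17:8235793-8236092 on the plus strand, chr14:30008847-30009146 on the minus strand and chr11:90390868-90391167 on the minus strand, in that order.
Ccr6: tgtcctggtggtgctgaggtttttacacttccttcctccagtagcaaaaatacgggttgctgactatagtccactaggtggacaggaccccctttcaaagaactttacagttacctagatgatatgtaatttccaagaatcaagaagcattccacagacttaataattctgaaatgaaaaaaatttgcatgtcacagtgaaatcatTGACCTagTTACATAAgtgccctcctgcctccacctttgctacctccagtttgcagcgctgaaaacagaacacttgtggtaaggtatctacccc
Il17rb: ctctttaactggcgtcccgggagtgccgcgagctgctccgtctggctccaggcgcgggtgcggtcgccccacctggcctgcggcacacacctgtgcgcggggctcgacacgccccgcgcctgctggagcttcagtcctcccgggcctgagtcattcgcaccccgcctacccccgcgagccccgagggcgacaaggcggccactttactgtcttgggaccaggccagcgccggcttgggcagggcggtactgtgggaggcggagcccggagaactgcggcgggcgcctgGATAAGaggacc
Hlf: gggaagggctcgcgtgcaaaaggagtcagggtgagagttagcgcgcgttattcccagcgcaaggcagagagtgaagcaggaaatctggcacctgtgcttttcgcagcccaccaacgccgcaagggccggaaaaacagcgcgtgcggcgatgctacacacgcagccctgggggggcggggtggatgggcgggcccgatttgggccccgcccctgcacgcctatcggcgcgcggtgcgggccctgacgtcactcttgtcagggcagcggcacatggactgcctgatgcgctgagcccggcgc

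Of 32851 mouse promoter windows of that kind, 16.3% hold AGGTCA, the ROR half-site, on either strand, 7.44% hold GATAAG, read by factors such as GATA3, and 0.938% hold TTATGTAA, a PAR bZIP site. In the Ccr6 window the ROR word begins at -44 and the PAR bZIP word at -36 from the start, both read on the opposite strand, and the words do not overlap. A second Ccr6 start window in the same table, at chr17:8242276-8242575 on the plus strand, holds 0 of the 3 words. The Il17rb window holds the GATA word once, at 38 bases after the start. A match describes letters and is not a bound site. The genes lie on mm10 (GENCODE M21) at chromosome 11, 90336536 to 90390895 for Hlf, chromosome 2, 133552159 to 133562885 for Bmp2, chromosome 13, 34627834 to 34653486 for Pxdc1, chromosome 9, 68653786 to 69388246 for Rora and chromosome 17, 8236043 to 8257141 for Ccr6.

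The chosen cells were not 1 population. Clustered by themselves, without Hlf, Bmp2 and Pxdc1 among the clustering genes, they fell into 10 clusters, lettered A to J. Clusters A, C and E together held 787 anti-Gr-1 and 1141 isotype control cells, had high Gata3, and held the receptor transcripts Cd3d, Cd3e and Trdc at no more than the CPM of cells chosen as macrophages by their C1q genes. Clusters B and D held 447 and 664 cells and had the transcripts of dermal γδ T cells of the IL-17 type. Cluster F, with transcripts of αβ and of γδ T cells, held 145 and 150 cells. Clusters G to J held 89 and 303 cells and carried the genes of a second cell type. The label by Hlf, Bmp2 and Rora therefore fits the A, C and E cells better than B and D. Bmp2 in B and D had 9.60 CPM in the anti-Gr-1 library and 9.25 CPM in the isotype control library, against 9.32 and 30.2 CPM in the macrophages. The groups were set by Gata3 and Cd3e levels for A, C and E and by Trdc, Il17a and Xcl1 levels for B and D, so the contrasts of these genes between the groups follow in part from the grouping.

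**Figure D1:**
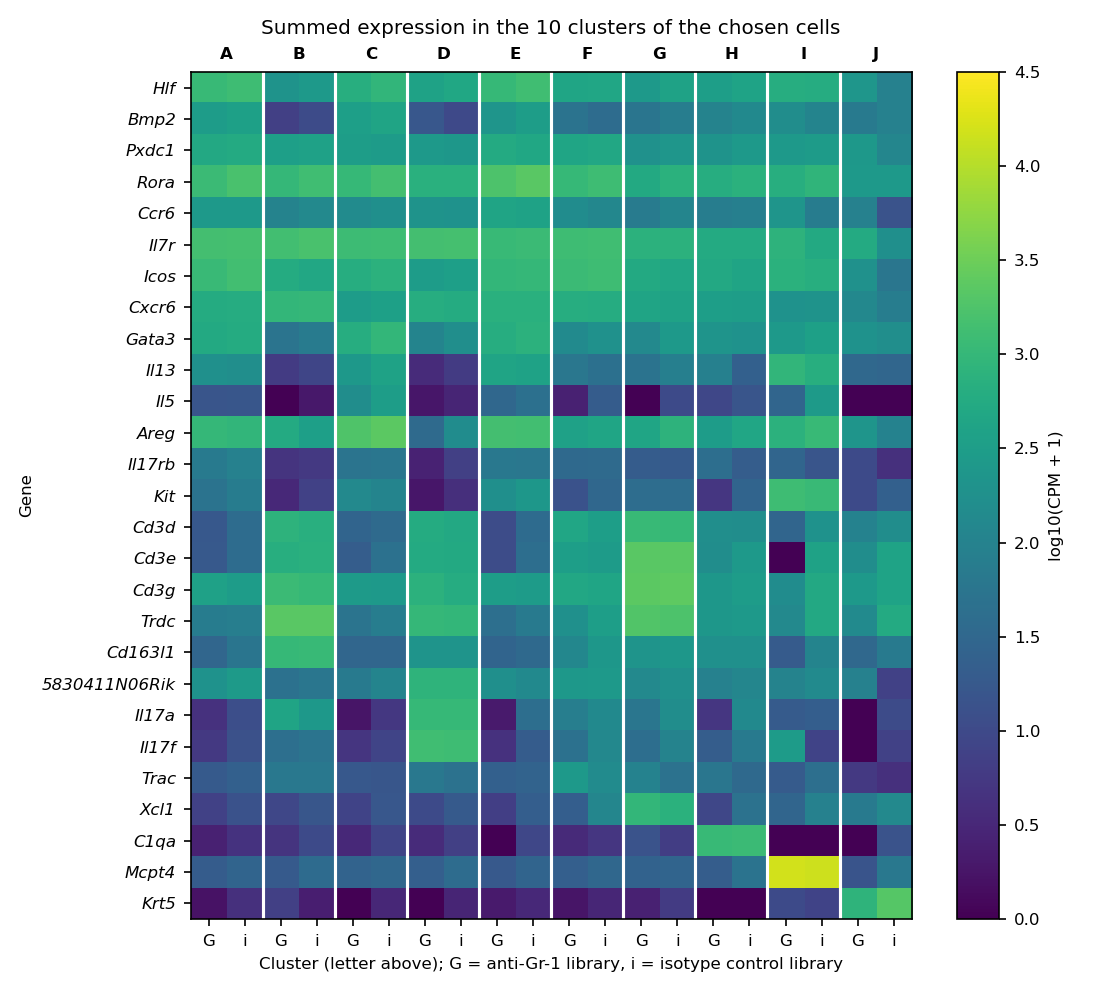
Summed level of 27 genes in the 10 clusters of the chosen cells, as log10(CPM + 1), with the anti-Gr-1 library (G) left of the isotype control library (i) in each cluster. Gata3, Il13 and Bmp2 are high in A, C and E, and Cd3d, Cd3e, Trdc and Cd163l1 in B and D, in both libraries.

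Over all other barcodes, 194 of 3106 genes tested (6.25%) were at least 2-fold higher in the chosen cells in both libraries and 392 (12.6%) at least 2-fold lower. Beside the genes of the rule, the leading genes were Ccr6, Ikzf3 (the zinc finger factor Aiolos), Nsg2, Gata3, Cxcr6 (the receptor of CXCL16), Il7r, Irs2, Itgb3 and Icos. Hlf had 671 CPM in the anti-Gr-1 library and 779 in the isotype control library, against 32.6 and 51.0 CPM in all other barcodes. Pxdc1 had 411 and 391 CPM against 32.0 and 41.8 CPM, and Rora had 1051 and 1334 CPM against 157 and 207 CPM. Each of these levels followed from the rule. Ccr6, which the rule did not read, had 205 and 200 CPM against 16.3 and 20.6 CPM. Il7r, a receptor chain that lymphoid cells need for survival, had 1282 and 1269 CPM against 220 and 248 CPM. Hlf UMIs were found in 86.8% of the anti-Gr-1 and 88.6% of the isotype control cells, Pxdc1 UMIs in 82.2% and 77.5%, and Bmp2 UMIs in 36.4% and 33.2%, so most cells entered through Hlf or Pxdc1.

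Cells near the threshold differed from those well inside it. The 212 anti-Gr-1 and 419 isotype control cells with exactly 2 UMIs of the 3 rule genes had 92.6 and 167 CPM of Gata3 and 1455 and 1669 CPM of Trdc, the constant gene of the δ chain. The 288 and 653 cells just outside, with 1 UMI, had 99.8 and 147 CPM of Gata3 and 1727 and 1541 CPM of Trdc. The 977 and 1357 cells with 5 or more had 451 and 574 CPM of Gata3 and 332 and 376 CPM of Trdc. The cells on both sides of the threshold thus had γδ T cell levels, and the Gata3-rich cells lay far above it.

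Clusters A, C and E and clusters B and D differed in 97 genes that were at least 2-fold higher (3.62% of 2682) and 101 that were at least 2-fold lower (3.77%), in both libraries. A gene was tested if it had 50 CPM or more in 1 of the 2 groups in each library. A gene under 50 CPM in 1 group could thus be called only as higher in the other. Genes of group 2 innate lymphoid cells were on the higher side. Of 10 such genes tested, 7 were higher and 0 lower. The 7 hold Gata3, which set the grouping. Il13, Il17rb, Il9r and Calca were under 50 CPM in B and D, so they could not be called lower. Gata3 had 568 CPM (550 to 587) in A, C and E cells of the anti-Gr-1 library and 741 CPM (721 to 761) in those of the isotype control library, against 71.7 and 112 CPM in B and D cells. Il13, the type 2 cytokine, had 227 and 284 CPM against 4.20 and 6.61 CPM. Areg, the epidermal growth factor family member amphiregulin, had 1219 and 1391 CPM against 376 and 264 CPM. Il17rb, a chain of the receptor for IL-25, had 65.9 and 75.8 CPM against 3.00 and 5.29 CPM. The others of this group that were higher were Icos, Il9r and Calca, a gene of calcitonin and the neuropeptide CGRP.

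Receptors, growth factors and surface molecules outside that list also set A, C and E apart. Kit, the receptor of stem cell factor, had 83.6 CPM in the anti-Gr-1 and 124 CPM in the isotype control cells of A, C and E, against 1.80 and 5.02 CPM in B and D. Il2, the T cell growth factor, had 119 and 80.2 CPM against 4.20 and 3.97 CPM. Of 11 genes of the BMP and TGF-β pathways tested, 5 were higher and 0 lower, beside 3.62% higher and 3.77% lower of all 2682 genes. Higher were the ligand Bmp2 (304 and 368 CPM), the activin receptor Acvr2a (137 and 147 CPM against 44.1 and 48.6 CPM) and the TGF-β receptor Tgfbr1 (59.5 and 80.4 CPM against 12.9 and 19.8 CPM). So were the integrin Itgav, which takes part in activating TGF-β, and the target gene Id2. Bmp2 also chose the cells. Bmp2, Acvr2a, Tgfbr1 and Itgav were under 50 CPM in B and D in at least 1 library, so they could not be called lower. Of 7 costimulatory and checkpoint genes tested, Icos, Cd27, Tnfrsf4 (OX40) and Tnfrsf18 (GITR) were higher and Pdcd1 (PD-1) lower. Cd27, Tnfrsf4 and Tnfrsf18 were under 50 CPM in B and D in at least 1 library, so they could not be called lower. Pdcd1 was under 50 CPM in A, C and E and could not be called higher. The chemokine receptors Ccr8 and Cx3cr1 were higher and Ccr2 lower, the last at 53.1 and 84.6 CPM against 424 and 494 CPM.

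The CD3 and γδ receptor genes lay on the other side, with 5 of 8 CD3 complex genes and 7 of 8 γδ receptor genes lower in A, C and E. These counts hold Cd3e and Trdc, on which the grouping was made. Trdc had 67.1 CPM (61.0 to 73.7) in the anti-Gr-1 and 78.6 CPM (72.2 to 85.5) in the isotype control cells of A, C and E, against 1778 and 1699 CPM in B and D. In cells chosen as macrophages, which should lack the gene, it had 77.1 and 154 CPM. Trdc UMIs were present in 31.8% and 30.9% of A, C and E cells, with median depths of 8097 and 6167 UMIs, and in 21.6% and 31.7% of the macrophages, with median depths of 10256 and 6691 UMIs. Cd3e, a CD3 subunit, had 16.9 and 41.2 CPM in A, C and E against 631 and 637 CPM in B and D, and 73.6 and 211 CPM in the macrophages. Cd3d had 17.5 and 37.0 CPM in A, C and E and 40.7 and 99.6 CPM in the macrophages. On the CPM scale these 3 genes were therefore under the macrophage level in A, C and E. By the share of cells with a UMI, Trdc was above the macrophages in the anti-Gr-1 library, although the macrophages there were deeper.

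Other receptor transcripts did not follow this pattern. Cd3g, the γ subunit of CD3, had 354 CPM in the anti-Gr-1 and 292 CPM in the isotype control cells of A, C and E, against 1025 and 848 CPM in B and D and 68.0 and 196 CPM in the macrophages, and its UMIs were present in 80.3% and 70.4% of A, C and E cells against 11.9% and 28.7% of the macrophages. Trbc2, a constant gene of the β chain, had 434 and 392 CPM against 579 and 499 CPM in B and D with UMIs in 85.6% and 75.7% of A, C and E cells against 10.5% and 19.2% of the macrophages, and its near-identical copy Trbc1 can share its UMIs. Trac, the constant gene of the α chain, had 18.5 and 21.7 CPM, against 7.96 and 12.6 CPM in the macrophages. Lck, the kinase of the T cell receptor pathway, was the 1 gene of the CD3 list that was higher in A, C and E, with 110 and 102 CPM against 11.7 and 9.25 CPM in B and D and 9.32 and 20.4 CPM in the macrophages. On the CPM scale A, C and E thus held Cd3g and Lck transcripts above the macrophage level and Cd3d, Cd3e and Trdc transcripts under it.

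The genes of the IL-17 type were lower in A, C and E in 9 of 12 cases tested and higher in 0, with Il17a, which set the grouping, among the 9. Il17a had 2.59 CPM in the anti-Gr-1 and 16.8 CPM in the isotype control cells of A, C and E, against 631 and 583 CPM in B and D and 1.59 and 13.3 CPM in the macrophages. Cd163l1, a scavenger receptor of γδ T cells, had 29.6 and 42.9 CPM against 733 and 720 CPM. Il23r, which encodes a chain of the IL-23 receptor, had 2.90 and 3.56 CPM against 159.7 and 173 CPM, and Sox13 and the kinase gene Blk were also lower. The scavenger receptor family gene 5830411N06Rik was not past 2-fold, with 168 and 198 CPM in A, C and E against 327 and 389 CPM in B and D. Markers of group 3 innate lymphoid cells were 0 of 7 higher and 4 of 7 lower.

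Some genes were at like levels in both kinds of cell. Il7r had 1326 and 1349 CPM in A, C and E against 1413 and 1532 CPM in B and D. Ikzf3 had 633 and 721 CPM against 688 and 833 CPM, and Irs2 had 451 and 510 CPM against 468 and 543 CPM. Rora, on which all the cells were chosen, had 1231 and 1719 CPM against 893 and 1058 CPM. The transcription factor genes Bcl11b, Tox and Tcf7, which act in T cell and innate lymphoid development, differed by less than 2-fold in both libraries, as with Tox at 221 and 238 CPM against 194 and 234 CPM.

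**Figure D2:**
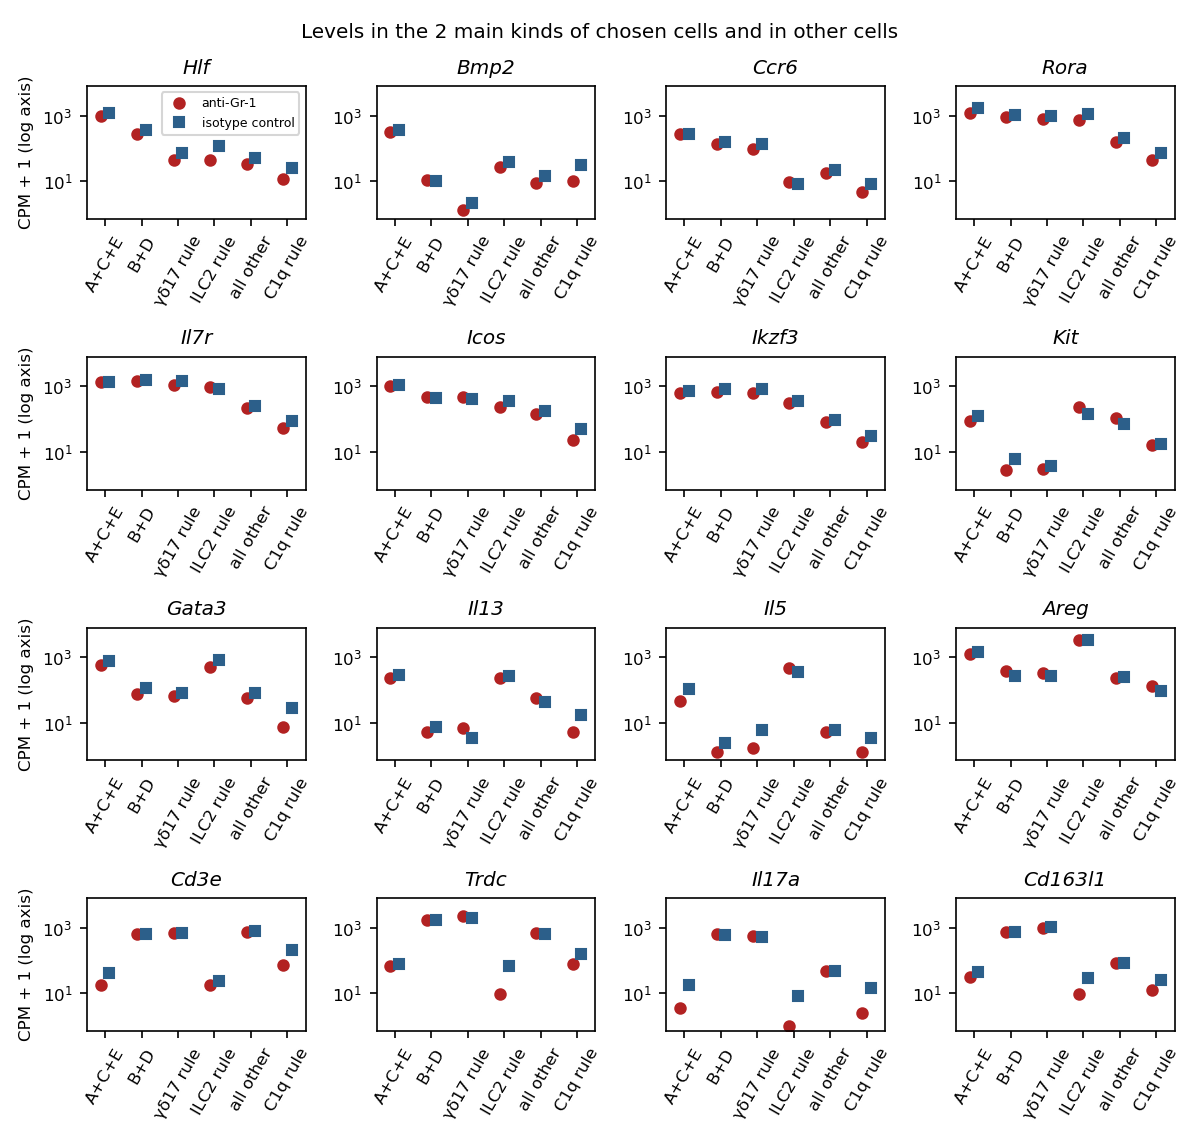
CPM + 1 on a log axis for 16 genes in clusters A, C and E, clusters B and D, and cells outside the choice, with anti-Gr-1 as circles left of isotype control as squares. The cells outside the choice met the stricter γδ rule, the group 2 rule or the macrophage (C1q) rule. The set of all other barcodes is every filtered barcode outside the choice and holds the cells of these rules too. Bmp2, a gene of the choice, and Gata3, which set the grouping, are higher in A, C and E than in B and D, and Il7r and Ikzf3 are at like levels.

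Each chosen cell was also thinned to 2000 UMIs, which left out 5 anti-Gr-1 and 125 isotype control cells. The thinned cells were sorted by their UMIs of Cd3d, Cd3e and Trdc together. Cd3e, Trdc, Gata3 and Il17a also set the grouping of the clusters, and Bmp2 chose the cells. The bins therefore describe the same counts again and are not a separate check of the division. In the anti-Gr-1 library 737 cells had none, 166 had 1, 78 had 2 and 482 had 3 or more, and in the isotype control library the numbers were 952, 280, 116 and 785. Gata3 had 530, 349, 160 and 93.4 CPM over these bins in the anti-Gr-1 library and 682, 589, 310 and 124 CPM in the isotype control library. Bmp2 had 313, 214, 51.3 and 14.5 CPM in the anti-Gr-1 library, and 336, 291, 121 and 23.6 CPM in the isotype control library. Il7r stayed between 1326 and 1462 CPM in the anti-Gr-1 library and between 1224 and 1403 CPM in the isotype control library. In thinned cells, 1 of 212 anti-Gr-1 cells with Il13 also held Il17a, and 5 of 341 isotype control cells did. Gata3 UMIs were present in 63.7% and 63.3% of the Il13 cells, beside 36.9% and 41.7% of all thinned cells. Trdc UMIs were present in 73.2% and 83.5% of the Il17a cells, beside 37.4% and 44.3% of all thinned cells.

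**Figure D3:**
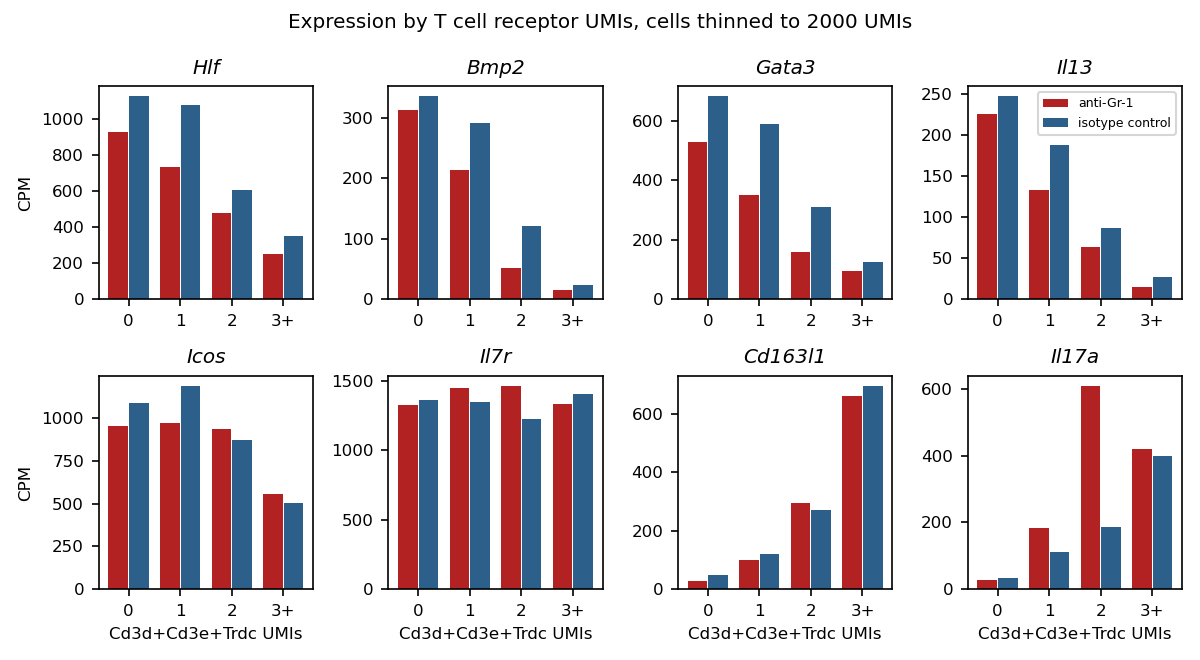
CPM of 8 genes in chosen cells thinned to 2000 UMIs, by the number of Cd3d, Cd3e and Trdc UMIs in the cell, with anti-Gr-1 bars left of isotype control bars. Hlf, Bmp2, Gata3 and Il13 fall and Cd163l1 climbs over the bins in both libraries, and Il7r stays between 1224 and 1462 CPM.

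Within A, C and E, the clusters differed in cytokine and receptor genes. Cluster A (513 anti-Gr-1 and 571 isotype control cells) was led by Gm14718, Il17rb, Il2, B3galt2, Bmp2, Cd27 and Ccr8. Icos had 1109 CPM in its anti-Gr-1 and 1376 CPM in its isotype control cells, and Cd27 had 301 and 289 CPM. Il1rl1, the IL-33 receptor that is typical of group 2 innate lymphoid cells, had 0.682 and 3.80 CPM there, under its macrophage level of 46.1 and 47.8 CPM. Cluster A held the largest number of chosen cells in each library and was given no cell type name.

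Cluster C (180 anti-Gr-1 and 320 isotype control cells) held part of the group 2 innate lymphoid markers, with Il5 and Il1rl1 above the other chosen cells together. Of 7 such markers, only Gata3, Il13 and Areg were found in 30% or more of its cells. Il17rb, Il5, Il1rl1 and Klrg1 fell short. Clusters A and E each passed 4 of the 7, with Il17rb added, so the count does not set C apart. Of 9 group 3 markers, C passed 4 (Ltb, Ccr6, Il7r and Kit). Il5, which drives eosinophil growth, had 157 CPM (136 to 180) in its anti-Gr-1 cells and 322 CPM (296 to 348) in its isotype control cells. Il1rl1 had 99.3 and 136 CPM, Areg had 1821 and 2297 CPM, and Arg1 (arginase) had 148 and 113 CPM. The growth factor gene Csf2 had 194 and 162 CPM, and Cd69, a residency and activation marker, had 660 and 606 CPM, against 151 and 156 CPM in cluster A.

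Cluster E (94 anti-Gr-1 and 250 isotype control cells) was led by Cd70, Dgat2, Tff1, Tnfrsf4, Rnf208 and Krt83 and was left unnamed. Rora had 1757 and 2203 CPM, Ccr6 had 429 and 395 CPM, against 273 and 268 CPM in cluster A and 149 and 171 CPM in cluster C. Il13 had 431 and 396 CPM, and Kit had 177 and 240 CPM. Nt5e, the ectoenzyme CD73, had 180 and 226 CPM, and the hair keratin gene Krt83 had 187 and 176 CPM against 60.7 and 65.7 CPM in cluster A. Il5 had 30.8 and 44.6 CPM, so E combined high Il13 with a level of Il5 far under that of C.

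Clusters B and D were both γδ type 17-like and differed in their receptor and cytokine genes. Cluster B (293 anti-Gr-1 and 397 isotype control cells) had 1023 and 1097 CPM of Cd163l1, 1033 and 1273 CPM of the δ variable gene Trdv4 and 84.9 and 66.6 CPM of the γ variable gene Tcrg-V6, with 43.4 and 53.8 CPM of Il17f. Cluster D (154 and 267 cells) had 210 and 210 CPM of Cd163l1, 48.0 and 89.6 CPM of Trdv4, 2.52 and 8.71 CPM of Tcrg-V6 and 1333 and 1271 CPM of Il17f. Il17a had 1019 and 1039 CPM in D and 416 and 246 CPM in B. The scavenger receptor family gene 5830411N06Rik had 832 and 837 CPM in D and 46.2 and 57.9 CPM in B. Zbtb16, the factor PLZF of innate-like T cells, had 157 and 172 CPM in B and 48.8 and 57.3 CPM in D, and Pdcd1 had 174 and 174 CPM in B and 37.9 and 33.6 CPM in D. The 2 clusters thus had opposite order for Cd163l1 and 5830411N06Rik in both libraries.

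Against γδ cells outside the choice, B and D hardly differed. The comparison cells had at least 3 UMIs of Cd163l1 and 5830411N06Rik and none of the dendritic epidermal T cell genes Xcl1, Fcer1g and Klrd1, and numbered 450 in the anti-Gr-1 and 523 in the isotype control library. Of 2498 genes, 3 were at least 2-fold higher in B and D in both libraries (0.12%) and 0 were at least 2-fold lower. They were Pxdc1 and Hlf, which the rule used, and Il17f, with 503 and 571 CPM in B and D against 229 and 257 CPM. By their counts, 40.9% of the chosen anti-Gr-1 cells and 41.3% of the chosen isotype control cells also met the wider conditions set for γδ type 17 cells, 6.27% and 7.75% met those for group 2 innate lymphoid cells, and 2.86% and 4.16% those for dendritic epidermal T cells. Cells outside the choice that met the wider γδ conditions carried dendritic epidermal T cell genes: of 11 such genes tested, 9 were at least 2-fold lower in the chosen cells than in them in both libraries (median log2 ratio -2.84 and -2.29). Against the stricter comparison cells 5 of 8 were higher in the chosen cells and 1 lower. The 5 were Fcer1g, Xcl1, Nkg7, Cd7 and Ctla2a. The stricter cells had to lack Fcer1g and Xcl1, so the result for these genes was set by that choice.

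Cells outside the choice that met the group 2 innate lymphoid conditions were few, 14 in the anti-Gr-1 and 32 in the isotype control library. Against them, 103 of 2758 genes were at least 2-fold higher in A, C and E in both libraries (3.73%) and 84 lower (3.05%). Leading lower genes included some known from myeloid cells. Tyrobp had 11.1 and 26.6 CPM in A, C and E against 373 and 199 CPM, and Spi1 had 3.36 and 6.41 CPM against 86.9 and 73.6 CPM. The comparison cells may thus not be pure. Ccr6 had 269 and 274 CPM in A, C and E, and 1 UMI in those 14 cells and 1 in those 32. Il1rl1 had 20.1 and 38.9 CPM in A, C and E against 330 and 412 CPM, Arg1 had 32.6 and 38.2 CPM against 295 and 442 CPM, and Areg had 1219 and 1391 CPM against 3353 and 3328 CPM. Gata3 had 568 and 741 CPM against 504 and 817 CPM, and Il13 had 227 and 284 CPM against 235 and 258 CPM. Gata3, low counts of Cd3 genes, and Il13, Il5, Il1rl1 and Klrg1 together chose the comparison cells, so the levels of these genes there follow from that choice. Gata3 also set the grouping of A, C and E, so its like level in both follows in part from these choices.

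The remaining clusters held other cells. Cluster F had 262 CPM of Trac in its anti-Gr-1 and 150 CPM in its isotype control cells, 170 and 102 CPM of the costimulatory receptor Cd28, 65.8 and 66.3 CPM of Ctla4, and 1170 and 1274 CPM of Icos. The level of Cd40lg, the ligand of CD40, was 343 and 133 CPM. Of 6 αβ T cell markers, only Trac and Trbc2 were found in 30% or more of F cells, and Trbc2 passed in every cluster. Cd4, Cd8a, Cd5 and Cd6 fell short. Of 9 γδ type 17 markers, Trdc, 5830411N06Rik and Cd3e passed, so F was given no single cell type name. Cluster G (47 anti-Gr-1 and 175 isotype control cells) was led by the dendritic epidermal T cell genes Trat1, Xcl1, Klrd1 and Prf1, and 80.9% and 85.7% of its cells were among the highest doublet scores. Cluster H (19 and 81 cells) carried macrophage genes, I (9 and 27) mast cell genes and J (14 and 20) keratinocyte and collagen genes. These 4 clusters were kept among the chosen cells, and the results on treatment that change most without them are also given that way.

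The share of chosen cells was higher in the anti-Gr-1 library, at 18.2% of quality-filtered barcodes (17.4% to 19.1%), than in the isotype control library, at 11.6% (11.1% to 12.01%), a ratio of 1.58 (1.48 to 1.69). Depth differed too, with a median of 8139 UMIs per filtered barcode in the anti-Gr-1 library and 4884 in the isotype control library. When each barcode was thinned to 2000 UMIs, leaving out 343 and 5038 shallower ones, the shares were 9.77% and 8.93%, a ratio of 1.09 (0.999 to 1.20). As a share of barcodes low in MHC class II transcripts, the chosen cells were 26.7% and 21.2%, a ratio of 1.26. The ratio was 1.61 (1.41 to 1.84) among female and 1.26 (1.14 to 1.38) among male cells, 1.66 with a threshold of 3 UMIs and 1.71 without clusters G to J. At 2000 UMIs per barcode the interval of the ratio, which covers counting error only, held 1, and the libraries lost unlike numbers of barcodes to thinning. Effects of the antibody, the depth and the makeup of the pools cannot be told apart.

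**Figure D4:**
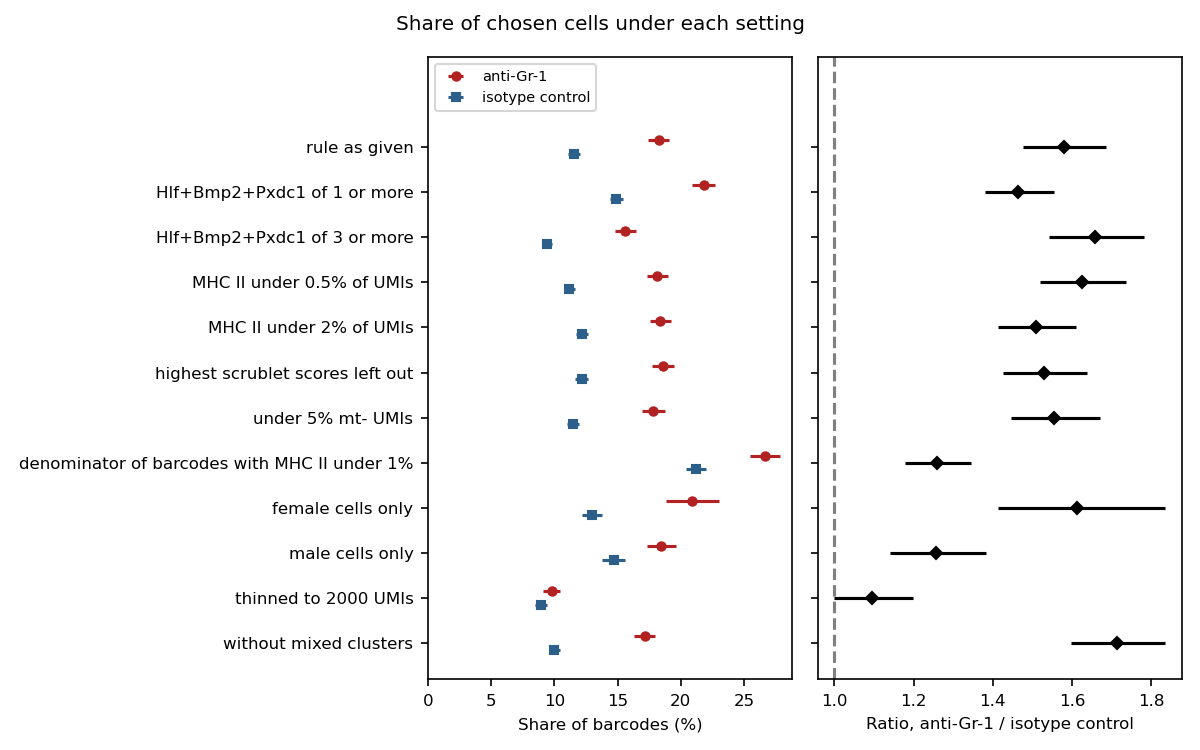
Share of the chosen cells among quality-filtered barcodes under each setting, with anti-Gr-1 as circles above isotype control as squares (left), and the ratio of the shares (right), with 95% exact intervals. The ratio is 1.58 by the rule as given and 1.09 after thinning each barcode to 2000 UMIs.

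Expression in the chosen cells differed little between the libraries. Of 2892 genes with 50 or more UMIs and at least 50 CPM in 1 library, 13 differed by 2-fold or more on the log2(CPM + 5) scale (0.45%), 1 of them higher in the anti-Gr-1 library (0.0346%) and 12 lower (0.415%). In all other barcodes 8 genes did (0.257%). The median log2 ratio of 12384 genes with 20 or more UMIs in the chosen cells was -0.13, and the median CPM ratio of 2489 genes with 50 or more CPM in both libraries was 0.919 (log2 -0.12), so small negative values lie near this median. The higher gene was AY036118, a gene model, with 1565 CPM in the anti-Gr-1 and 612 CPM in the isotype control library. Without clusters G to J, 7 genes differed (0.248%), within A, C and E 5 did (0.177%), and within B and D 7 did (0.252%).

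Genes of the rule and of the cells' identity were among those that differed by less than 2-fold. Hlf had 671 CPM in the anti-Gr-1 library and 779 CPM in the isotype control library (log2 ratio -0.22), Bmp2 had 177 and 202 CPM (-0.19), Gata3 had 352 and 448 CPM (-0.34), and Ccr6 had 205 and 200 CPM (0.03). Il17a had 184 and 194 CPM (-0.08), Il13 had 141 and 161 CPM (-0.19), and Areg had 827 and 902 CPM (-0.12).

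Il5 was the 1 type 2 cytokine gene past 2-fold, with 24.3 CPM in the anti-Gr-1 cells and 57.0 CPM in the isotype control cells, a ratio of 0.426 (0.372 to 0.487). Its 299 and 815 UMIs lay in 96 and 180 cells. In the anti-Gr-1 library 5 cells held 49.5% of them, and in the isotype control library 5 cells held 28.2%. The log2 ratio was -1.08 in all chosen cells, -1.14 in A, C and E and -1.14 without clusters G to J. In cells with no Cd3d, Cd3e or Cd3g UMI, which leaves out most A, C and E cells because they hold Cd3g, it was 0.46. In cluster C, Il5 UMIs were present in 17.8% of the anti-Gr-1 and 23.8% of the isotype control cells.

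Most other genes that were at least 2-fold lower in the anti-Gr-1 cells are known from other cell types. Lyz2 (lysozyme of phagocytes) had 62.3 CPM against 165 CPM, and Il1b had 20.9 CPM against 60.3 CPM. Apoe, Pf4, Trf and Ifitm2 were also past 2-fold. The prostaglandin synthase gene Ptgs2 was past 2-fold too, but it was a leading gene of cluster B (195 CPM against 29.5 CPM in the other chosen cells). In B and D it had 99.4 CPM in the anti-Gr-1 and 168 CPM in the isotype control library. All other barcodes had 95.3 and 132 CPM of Ptgs2. Without clusters G to J, the log2 ratio was -1.26 for Lyz2, -1.08 for Il1b and -1.03 for Ptgs2. For Apoe, Trf, Pf4 and Ifitm2 it was -0.42, -0.53, -0.92 and -0.93, so these 4 were no longer past 2-fold. Xist had 193 CPM against 440 CPM, beside the lower share of female cells in the anti-Gr-1 library. Trat1 and the granzyme gene Gzmc, which lead or mark dendritic epidermal T cells here, were lower too, and without clusters G to J their log2 ratios were -0.65 and -0.72. All 10 macrophage genes were below 0, with a median of -0.84 beside -0.13 for all genes, and 10 of 10 were below 0 without clusters G to J, with a median of -0.70. The 8 MHC class II genes, some of which the choice limited, were below 0 with a median of -0.75, and of -0.87 without those clusters. Monocyte and neutrophil genes, known from cells the antibody targets, were below 0 in 8 of 8 cases with a median of -1.29 and 5 past 2-fold, and without those clusters the 6 with 20 or more UMIs had a median of -0.43 with 0 past 2-fold. Keratinocyte genes were below 0 in 8 of 8 cases (median -1.07, 4 past 2-fold), but without those clusters 3 were above and 4 below 0 (median -0.00205), and in B and D 4 of 4 were above 0 (median 1.09). Fibroblast and endothelial genes had a median of -1.59 with 4 of 6 past 2-fold, and the 3 left without those clusters had -0.25.

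The macrophage genes C1qa, C1qb, C1qc and Mrc1 summed to 85.9 CPM in the anti-Gr-1 and 168 CPM in the isotype control cells, with none at 0, and in A, C and E to 9.31 and 31.9 CPM. Cd3e in the macrophage-rule cells, which reads free RNA and doublets alike, had 73.6 CPM in the anti-Gr-1 and 211 CPM in the isotype control library. The share of chosen cells among the highest doublet scores was 4.70% and 11.2%, beside 6.44% and 15.6% of all filtered barcodes. Because the number marked was set by the barcode count of each library, these shares do not compare the doublets of the libraries. The part of free RNA or of doublets in the result was not tested.

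Slc15a2, a peptide transporter gene, was lower in each kind of cell, with 15.1 CPM in the anti-Gr-1 and 52.6 CPM in the isotype control cells (log2 ratio -1.52), -1.38 in A, C and E, -1.90 in B and D and -1.60 without clusters G to J. It was also lower in all other barcodes (12.8 against 37.7 CPM, log2 ratio -1.27), so the difference was not limited to the chosen cells. The linker histone gene Hist1h1e was higher, with 118 CPM in the anti-Gr-1 and 62.4 CPM in the isotype control cells (log2 ratio 0.87), and had 102 and 59.6 CPM in all other barcodes (0.73). The ubiquitin gene Ubb had 1341 and 872 CPM (0.62), and 0.52 in all other barcodes. Il2 had 75.5 and 53.1 CPM in the chosen cells (0.47) and Ccr8 had 65.2 and 45.6 CPM (0.47), against 0.16 and 0.23 in all other barcodes, none of them past 2-fold.

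**Figure D5:**
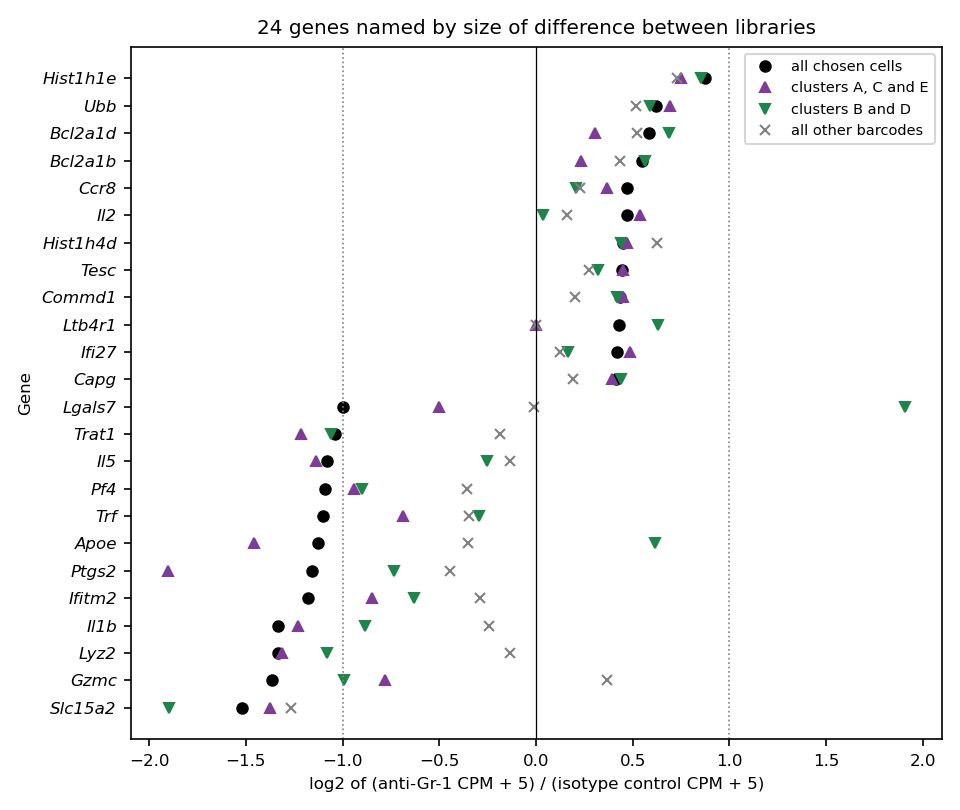
log2 ratio of anti-Gr-1 over isotype control (CPM + 5) for the 12 highest and 12 lowest named genes, in all chosen cells (circles), clusters A, C and E (upward triangles), clusters B and D (downward triangles) and all other barcodes (crosses), with dotted lines at 2-fold. Hist1h1e, Ubb and Slc15a2 lie on the same side in all 4 sets of cells, and Apoe and Lgals7 do not.

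Lists of lymphoid and response genes had medians nearer to that of all genes. The 17 group 2 innate lymphoid genes with 20 or more UMIs had a median log2 ratio of -0.20, with 0 past 2-fold upward and 1 downward (Il5), and the 14 genes of the IL-17 type had a median of -0.11 with 0 past 2-fold. The 22 BMP and TGF-β genes were all below 0 with a median of -0.29 and 0 past 2-fold, beside a median of -0.13 over all genes. Without clusters G to J the medians were -0.27 for the group 2, -0.14 for the IL-17 type and -0.26 for the BMP and TGF-β genes. Interferon response genes had a median of -0.29, with 20 of 23 below 0 and 1 past 2-fold, and -0.18 without those clusters, and 22 immediate early genes, which respond to tissue digestion, had a median of -0.27 and of -0.32 without them. The 14 glucocorticoid-induced genes had a median of -0.23 and of -0.25 without them, and the 12 dendritic epidermal T cell genes had -0.65, which was -0.24 without clusters G to J.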

How the data were processed

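The deposited values are raw counts of UMIs per gene and barcode, deposited after alignment to mm10 (per the submitters' processing notes) of libraries of a 3′ v2 chemistry (per the labels' protocols). The file headers give Cell Ranger 4.0.0. Both matrices hold the same 32285 genes, and antibody-derived tags were not analysed here. Barcodes with 200 or more genes and under 10% mitochondrial UMIs left 8047 of 9110 in the anti-Gr-1 and 19542 of 21311 in the isotype control library, with 85142470 and 125253392 UMIs before filtering. The chosen cells and the gene lists were set with earlier results of these data known.

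Counts were summed over cells per library and scaled to CPM in Python 3.11.15 (scanpy 1.11.5, scipy 1.17.1). Fold changes are on the log2(CPM + 5) scale, and a gene was called at a log2 of 1 or more in size, with 50 or more UMIs and 50 CPM. Levels have exact Poisson intervals, shares Clopper-Pearson intervals and ratios exact conditional intervals. The chosen cells were clustered by Leiden (2000 variable genes, 20 components, 15 neighbours, resolution 0.5). The clusters were grouped after they were seen: A, C and E by Gata3 of 300 CPM or more and Cd3e under 100 CPM, and B and D by Trdc of 900 and Il17a of 300 CPM or more with Xcl1 under 100 CPM. Macrophage-rule cells had 5 or more C1q UMIs. Doublet scores came from scrublet. The share marked in each library was set in advance at 0.8% per 1000 of its filtered barcodes. Marked barcodes were kept, and left out as an alternative.

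Named genes were the rule genes and Ccr6, the leading genes over other cells, list members, and the 12 highest and 12 lowest log2 ratios between libraries without mitochondrial, ribosomal, sex-linked, receptor segment and unnamed genes. AY036118 and Xist fall outside this rule, as do some leading genes of clusters, and were chosen after their values were seen. Alternatives were other thresholds, pseudocounts, scaling, thinning to 2000 UMIs, sexes, doublets and kinds of cell. The scripts were tested on simulated data. Some genes are not reported here.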

Additional observations from a re-analysis of the deposited data

Results flagged for a closer look

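Il17a was flagged because its difference between the libraries ran in opposite directions in female and male cells, as called by Xist and Y-linked transcripts. The log2 ratio of anti-Gr-1 over isotype control was 0.41 in female chosen cells and -0.31 in male chosen cells. The difference between the sexes was not tested. Il17a UMIs were concentrated, with 20 anti-Gr-1 cells and 29 isotype control cells holding 50% of them.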

How the results depend on the processing

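Each pool gave 1 library, so no replicate could be left out. No paired analysis was possible because each treatment has 1 library. The share of chosen cells in the anti-Gr-1 library was 21.8% with a threshold of 1 UMI, 15.6% with 3, 26.7% of barcodes low in MHC class II, 20.9% of female cells, 9.77% after thinning and 17.1% without clusters G to J. In the isotype control library it was 14.9%, 9.41%, 21.2%, 12.9%, 8.93% and 10.0% under the same settings, 14.7% of male cells, 12.2% with MHC class II under 2% of UMIs and 12.2% without the highest doublet scores. The ratio was 1.46 with a threshold of 1 UMI, 1.26 of barcodes low in MHC class II, 1.26 of male cells, 1.09 after thinning and 1.71 without clusters G to J. Genes higher in the anti-Gr-1 library numbered 2 with median-ratio scaling, thinning, male cells, cells with a Cd3 UMI or clusters B and D, 3 with no CPM minimum or female cells, and 6 in cells with no Cd3 UMI. Lower genes numbered 70 with no CPM minimum, 71 in cells with no Cd3 UMI, 7 with a threshold of 3 UMIs or in cells with a Cd3 UMI, 4 in A, C and E, 5 in B and D and 6 without clusters G to J. The median of the IL-17 type list was 0.00303 with median-ratio scaling, 0.0129 in female cells, -0.29 in male cells, -0.32 in cells with no Cd3 UMI and -0.31 in A, C and E. Immediate early genes had -0.15 with that scaling and -0.14 in female cells, and glucocorticoid-induced genes -0.11 with that scaling. Dendritic epidermal T cell genes had -0.54 with that scaling, -0.36 without the highest doublet scores, -0.56 with a threshold of 3 UMIs, -0.51 in female and -0.38 in male cells, -0.19 with no Cd3 UMI, -0.73 with a Cd3 UMI, -0.24 in A, C and E, -0.59 in B and D and -0.24 without clusters G to J. Over the planned γδ type 17 comparison cells, which carried dendritic epidermal T cell genes, the chosen cells had log2 ratios of 2.30 in the anti-Gr-1 and 2.39 in the isotype control library for Gata3, 3.07 and 2.92 for Il17rb, and -2.60 and -2.19 for Cd3e. After thinning, Gata3 in the isotype control library had 2.34, Il17rb 2.91 and 2.94, and Cd3e -2.68 and -2.35. With a threshold of 3 UMIs, Il17rb had 3.22 and 3.11 and Cd3e -2.83 and -2.46. Without the highest doublet scores, Il17rb had 3.09 and 3.07 and Cd3e -2.96 and -2.91. With stricter comparison cells, Il17rb had 2.94 and 3.08 and Cd3e -1.02 and -0.54. Reversed were Il5 at 0.46 with no Cd3 UMI, Cd40lg (1.13 in all chosen cells, 48.8 against 19.6 CPM) at -0.29 with no Cd3 UMI and -0.59 in A, C and E, and Apoe at 0.61 in B and D. Causes were not tested. The settings by cluster, without clusters G to J and with stricter comparison cells were chosen after the data were seen.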
